A study of Caenorhabditis elegans with 2 samples.

Results

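Homeobox genes encode transcription factors that bind DNA through a homeodomain, and 85 of the 19973 protein-coding genes with a promoter window were taken here as homeobox genes by their symbols. The rule took every gene named ceh, lim, ttx, php, nob or pal and the individually named egl-5, lin-39, mab-5, unc-4, unc-30, unc-42, unc-86, vab-3, vab-7, vab-15 and mec-3. The ONECUT class, whose proteins carry a cut domain beside the homeodomain, had 6 genes and was set against the other 79. The rule is one of names: lim-8, lim-9 and ttx-7 fall under it but do not encode homeodomain proteins, and further homeobox genes fall outside it, of which 18, such as unc-62, were listed for comparison and the CUX-type gene is given apart.

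The assay was ChIP-seq, in which DNA fragments bound by a chosen protein are pulled down and sequenced. The protein was R02D3.7 fused to eGFP, made from the integrated transgene wgIs218 in Caenorhabditis elegans strain OP218. All animals also carried unc-119(ed3), were L2 larvae of mixed sex, and were collected as pooled whole organisms, so that signal from different cell types is merged. There was 1 group with 2 biological replicates, and the promoter that drives the transgene is not given in the sources used here. No other genotype, stage or untagged strain was analysed here, so the values below compare genes within these libraries and not conditions. The annotation names the tagged gene rcat-1.

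Homeodomain proteins set up the body axis and the identity of cells. In the nematode the Hox genes pattern the axis from head to tail, and many LIM, POU, sine oculis type and paired-like genes each keep up the identity of particular neuron types. The ONECUT genes act with the related CUX-type gene ceh-44 in gene expression shared by all neurons, and ceh-39 is also one of the signals by which X chromosomes are counted in sex determination. A gene is described here by the peaks in its promoter window, which covered the 1000 bp before and the 200 bp after each of its annotated 5′ ends. Such a peak lies near the gene. It does not show that the gene is regulated by the protein.

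4 lists of regions were used. Each replicate had a list of 30000 candidate regions, the replicates' merged reads had given a further 30000 (the joined list), and 542 regions had passed the irreproducible discovery rate (IDR) procedure, which asks whether replicates rank regions alike. These 542 were exactly the strongest joined candidates, with a lowest signal of 39.12, against 39.10 for the candidate just below. Candidate lists of this length hold background as well as binding, so a candidate outside the IDR set is called a candidate and not a binding site. Signal values have no stated scale and differ in size between lists. They are compared within a list, and ranks are compared between lists of the same length. Read depth is unknown.

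The only homeobox gene with an IDR summit in its window was ceh-38, a ONECUT gene. The summit lay 38 bp downstream of the first of its 11 annotated 5′ ends. The bases of this peak that lie before the first 5′ end, and a site just after it, are shown because they hold the 6-base words of this one IDR peak (WBcel235, plus strand, chrII:6951399-6951525 and chrII:6951629-6951658). Capitals mark the words CGTAAA and ACGCGC, and the summit base lies between the printed stretches. The strongest joined summits of lim-4 (chrX:3874309-3874409, minus strand), unc-30 (chrIV:13118086-13118186, plus strand) and ceh-57 (chrII:10368016-10368116, minus strand) are shown as the 50 bp to each side of each with the summit base between, since they are among the next strongest members. None of the words lies in these shorter windows, and none lies that near to the ceh-38 summit either. All sequences are from the RefSeq copy of WBcel235 and read in the direction of the named gene.
ceh-38 peak before the first 5′ end: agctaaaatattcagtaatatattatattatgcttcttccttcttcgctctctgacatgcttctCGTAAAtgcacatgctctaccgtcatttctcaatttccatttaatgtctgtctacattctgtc
ceh-38 site after it: gacggacaaacaACGCGCggccacactctc
lim-4 summit: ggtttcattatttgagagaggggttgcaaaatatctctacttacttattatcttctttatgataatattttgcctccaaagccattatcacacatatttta
unc-30 summit: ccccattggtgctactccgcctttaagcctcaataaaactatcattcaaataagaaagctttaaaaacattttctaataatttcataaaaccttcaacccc
ceh-57 summit: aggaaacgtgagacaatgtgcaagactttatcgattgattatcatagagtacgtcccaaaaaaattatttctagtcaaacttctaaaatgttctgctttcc

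The first question was how ceh-38 compares with the rest of its class. The gene (WBGene00000459, chrII:6951526-6955409, plus strand) had a joined and IDR signal of 90.1, at rank 206 of the 542. In replicate 1 the same region had a signal of 66.0 and rank 203 of 30000. In replicate 2 the summit lay 3 bp away, with a signal of 23.6 and rank 217. The 3 candidate lists thus placed this peak at nearly the same rank and position. It was not among the strongest of the IDR set: of the 694 protein-coding genes with an IDR summit in the window, 288 had a higher one.

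The ceh-38 summit lay in the 5′ UTR of the transcripts that start furthest upstream and 55 bp before the next annotated 5′ end. The gene upstream, malt-1, which encodes a homologue of the MALT1 paracaspase, runs the other way (chrII:6947855-6951300). The gap between the genes was 225 bp, and the summit was 264 bp upstream of the 5′ end of malt-1, so the same peak counts for both genes. A weaker joined candidate followed in an intron of ceh-38, 251 bp from the first 5′ end, with a signal of 21.8 and rank 3102, and had a candidate in each replicate. Of the genes analysed, 27 had 11 or more annotated 5′ ends.

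**Figure D1:**
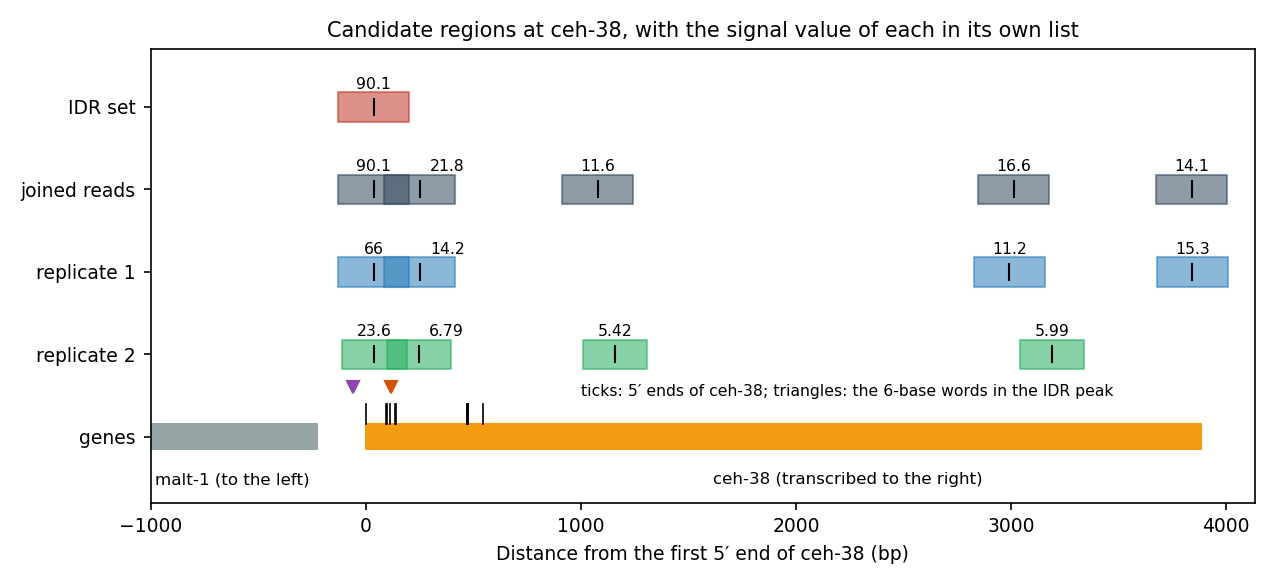
Regions at ceh-38 in each of the 4 lists, by distance in bp from the first 5′ end of the gene (horizontal axis). Bars span the regions, black strokes mark summits and the number above each bar is its signal in that list. Short ticks mark the 5′ ends of ceh-38 and triangles the words CGTAAA and ACGCGC inside the IDR peak. The region with joined signal 90.1 is in all 4 lists at nearly the same place, with its summit 38 bp inside ceh-38.

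The remaining ONECUT genes had weaker candidates or none. On X, ceh-41, ceh-21 and ceh-39 lie on the minus strand within 9565 bp (chrX:1846608-1856172). The strongest joined summit of ceh-41 had a signal of 13.01 and rank 22572, in the 3′ UTR of its neighbour ceh-21 and 223 bp upstream of the ceh-41 start. Replicate 2 had a candidate there with a signal of 9.04 and rank 5124, while the strongest summit of replicate 1 in the window, with a signal of 9.90 and rank 16651, lay elsewhere. No joined candidate lay in the window of ceh-21, which had a weak candidate in each replicate, at rank 26817 in replicate 1 and 19396 in replicate 2 and at different places. In the windows of ceh-39, ceh-48 and ceh-49, none of the 4 lists had a summit. Of the 6 ONECUT genes, therefore, 1 had an IDR summit, 2 had a joined candidate and 3 had a candidate in each replicate, where 3.47%, 43% and 23.4% of all protein-coding genes did. Those 3 were ceh-38, ceh-41 and ceh-21.

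The CUX-type gene that RefSeq names ceh-44 is called cone-1 in the annotation used and so fell outside the rule. Its window held a joined candidate with a signal of 14.2 and rank 17740, one in replicate 1 with a signal of 7.87, and none in replicate 2.

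Of the 79 members that are not ONECUT genes, none had an IDR summit in the window. A count of 0 of 79 leaves room for a share of about 3.797%, or 3 counts, and the upper Wilson limit was 4.64%. The share over all protein-coding genes was 3.47%. Over all 85 members the share was 1.18% (95% Wilson interval 0.208 to 6.37, 1 gene). At this number of genes a share as high as that of all genes lies within the interval, so no difference was detectable, and no share can be called particular to the family.

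Candidates of the joined list lay in the windows of 36 of the 85 members (42.4%, Wilson interval 32.4 to 53.0), against 43% of all protein-coding genes. Members had more annotated 5′ ends (mean 1.835 against 1.491) and wider windows (mean 1745.5 bp against 1459.4 bp), so such shares are not like for like. With the outermost 5′ end only, 30 members had a joined candidate, against 39.2% of all genes. The highest, ceh-38, stood far from the rest: the other 35 ran from 11.7 to 26.4, all below the lowest IDR signal, and the lowest candidate of the whole list had 11.6. The median joined signal of the 36 was 15.1 (quartiles 13.3 and 17.1), against 16.2 (13.7 and 20.6) for the 8579 protein-coding genes with a joined candidate. Over all 30000 joined regions, wherever they lie, the median was 14.9, and without ceh-38 the members' median was also 14.9.

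**Figure D2:**
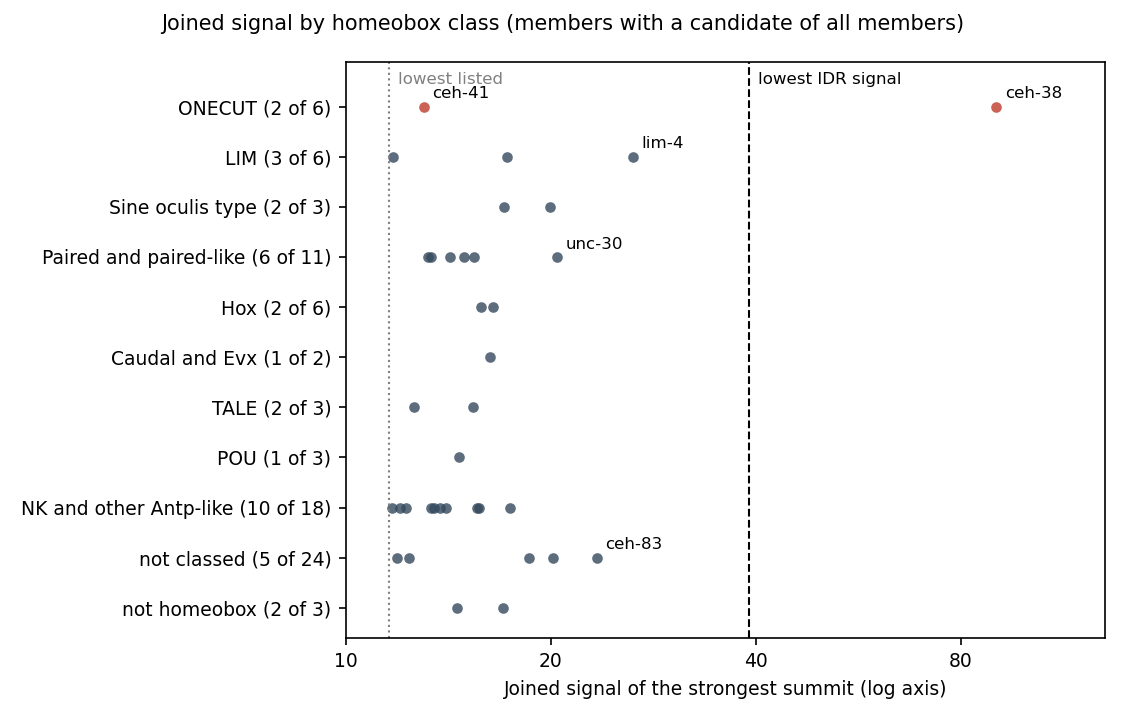
Joined signal of the strongest summit in the window (horizontal log axis) for each member with a joined candidate, by homeobox class. Each point is 1 gene, class labels give how many of how many members have a candidate, the dashed line is the lowest signal of the IDR set and the dotted line the lowest of the joined list. All points but ceh-38 lie left of the dashed line, between 11.7 and 26.4.

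Among the Hox genes, 2 of 6 had a joined candidate and none an IDR summit. For this and the class counts below, the share of all protein-coding genes with a joined candidate was 43%. No class was tested against it. The posterior gene egl-5 had a joined signal of 16.4 at rank 10699, 266 bp upstream, with 10.95 at rank 2139 in replicate 2 and 8.60 in replicate 1 at that place. The mid-body gene lin-39, which acts in vulval development, had 15.8 at rank 12300 in an intron of its own longer transcripts, with 12.6 in replicate 1 and no candidate of replicate 2 within 100 bp. Both values lay inside the quartiles of all joined regions, 13.02 and 17.98. For mab-5, which acts in the posterior body, the joined list had no summit in the window, although replicate 1 placed a candidate 980 bp upstream with a signal of 17.4 and rank 1884. Replicate 2 had its strongest, with a signal of 8.12, at another place. The anterior gene ceh-13 and the posterior genes nob-1 and php-3 had no summit in any list. Of the caudal and Evx genes, pal-1, the caudal homologue, had a joined signal of 16.3 at rank 11056 and 10.4 in replicate 1 with nothing in replicate 2, and vab-7, the even-skipped homologue, was in no list.

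LIM homeobox genes had a joined candidate in 3 of 6. The strongest was lim-4, which specifies the AWB olfactory neurons, with a joined signal of 26.4 at rank 1344, the highest of any member after ceh-38. The summit lay between genes, 814 bp upstream. Replicate 1 gave it a signal of 19.5 and rank 1210, but replicate 2 gave 5.61 and rank 22657, so the position recurred while the rank did not. The touch neuron gene mec-3 had a joined signal of 17.2 at rank 8939 in its own intron, from a replicate 2 candidate of 11.1 at rank 2047, and replicate 1 had no candidate in its window. The gene ceh-14, which acts in the AFD thermosensory neurons, had the lowest joined signal of the class, at 11.7. Of the other LIM genes, ttx-3, which specifies the AIY interneurons, had a candidate in replicate 1 only, lim-6 in replicate 2 only, and lim-7 in none of the lists.

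Of the sine oculis type genes, ceh-34, which specifies pharyngeal neurons, had a joined signal of 19.9 at rank 4698, 371 bp upstream and between genes. Replicate 1 gave 12.7 at rank 7261 and replicate 2 gave 6.58 at rank 15354, within 100 bp of the joined summit. Its relative ceh-33 had 17.1 at rank 9291, with the summit in a coding exon of the neighbouring gene C10G8.8 and with only a weak candidate of 5.26 in replicate 2. The remaining gene of the class, ceh-32, was in no list.

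Paired and paired-like genes had a joined candidate in 6 of 11, with a median of 14.6. The strongest was unc-30, the Pitx homologue that specifies GABA motor neurons. It had a joined signal of 20.4 at rank 4187, between genes and 841 bp upstream. Replicate 1 gave 15.3 at rank 3325, and replicate 2 gave 4.89 at rank 29944, which is nearly the last of the list. For unc-42, which specifies command interneurons and their partners, the order was the other way: a joined signal of 14.2 went with 11.4 at rank 1724 in replicate 2 and 8.03 at rank 27940 in replicate 1, the latter at another place. The other joined candidates were at unc-4, ceh-8 and the Otx-type genes ceh-37 and ttx-1, from 13.2 to 15.4, and ceh-10, ceh-17 and ceh-45 were in no list.

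The classes that remain held mostly weak candidates. The NK and other Antp-like genes had 10 of 18, with a median of 13.6, and the highest was ceh-28, which acts in the pharyngeal M4 neuron, with 17.4 at rank 8484 and with 11.2 in replicate 1 and 6.48 in replicate 2. The next was ceh-1, with 15.7 at rank 12678 and 10.3 in replicate 1, and with nothing in replicate 2. Joined candidates of ceh-16, the engrailed homologue, and ceh-43, the Distal-less homologue, had no counterpart in the window in either replicate. Of the TALE genes, the Hox cofactor ceh-20 had 15.4 at rank 13586, while replicate 1 alone gave it 16.2 at rank 2541. Replicate 2 had no candidate at that place. The POU gene unc-86, which acts in many sensory neurons, had a candidate in replicate 2 only, with a signal of 6.01.

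24 members were put in no class, and 5 of them had a joined candidate, where 43% of all protein-coding genes did. The strongest, ceh-83, had a joined signal of 23.4 at rank 2252, in a coding exon of irld-9 and 351 bp upstream of its own start. Replicate 1 gave 13.7 at rank 5284 there, and replicate 2 had its strongest candidate of the window, 11.4 at rank 1727, at a distance over 100 bp. The gene ceh-57 had a joined signal of 20.2 at rank 4428, in an intron of the adjacent homeobox gene ceh-58. Replicate 2 gave this place 15.4 at rank 471, inside its own strongest 542, whereas replicate 1 had no candidate there and only 8.18 at rank 26906 elsewhere in the window. The gene ceh-90 followed with 18.6 at rank 6546, with 11.9 in replicate 1 and 5.93 in replicate 2.

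Of the 3 genes that the rule takes by name alone, 2 had a joined candidate, where 43% of all protein-coding genes did. Both signals lay inside the range of the homeobox genes other than ceh-38. The LIM-domain gene lim-9 had a joined signal of 17.03 at rank 9339, and 15.5 at rank 3153 in replicate 1 elsewhere in the window. For lim-8 the joined signal was 14.6, and ttx-7, which encodes an inositol monophosphatase, was in no list. Leaving the 3 out gave 34 of 82 genes with a joined candidate and the same median of 15.1.

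The next comparison was how fast members enter a list as it is lengthened from its strongest end. Among the strongest 2000 joined regions, 2 members had a summit (2.35%, against 7.34% of all protein-coding genes). Among the strongest 5000 there were 6 (7.06%, Wilson interval 3.28 to 14.6, against 12.4% of all genes). These 6 were ceh-38, lim-4, ceh-83, unc-30, ceh-57 and ceh-34. Among 10000 there were 11 (12.9% against 19.7%), and at the full length the shares were 42.4% and 43%. Among the strongest 542 regions of replicate 1 there was 1 member, ceh-38, against 3.46% of all genes, and among those of replicate 2 there were 2, ceh-38 and ceh-57, against 2.77%. In the full lists of the replicates, 35 members had a summit in replicate 1, against 42.6% of all genes, and 43 members (50.6%, Wilson interval 40.2 to 61.0) in replicate 2, against 41.9%. No test was made of these shares, and those of the shorter lists rest on few genes. The members' windows were also wider on average, as given above.

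**Figure D3:**
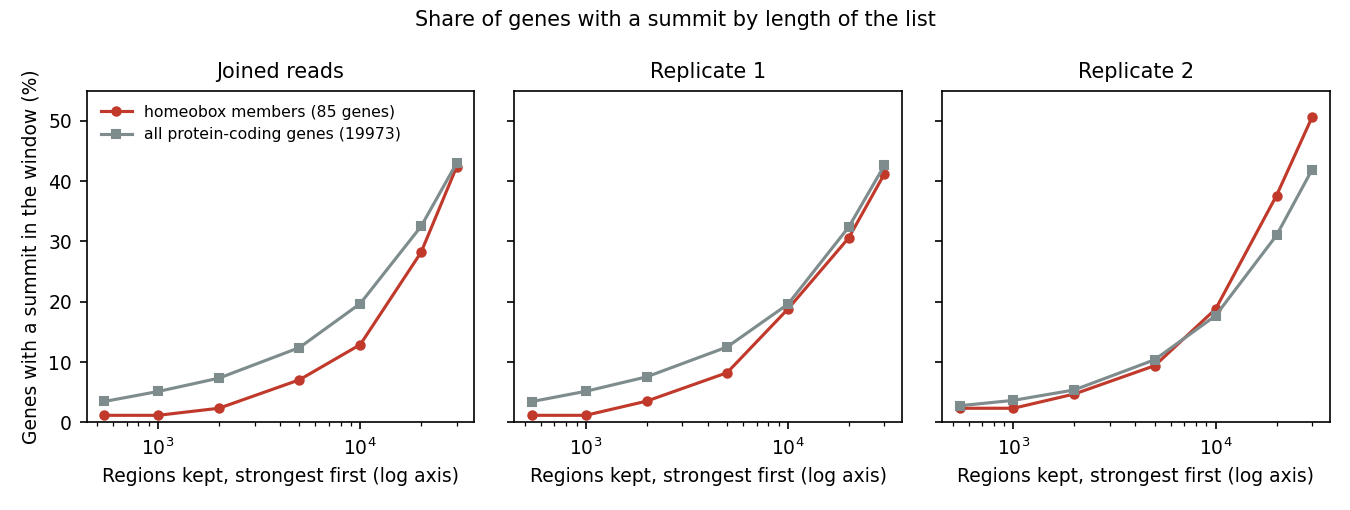
Share of genes with a summit in the window (vertical axis, percent) against the number of regions kept from the strongest down (horizontal log axis), for the joined list and each replicate. Red circles are the 85 members and grey squares all 19973 protein-coding genes. In the joined list the members run below all genes, from 1.18% against 3.47% at 542 regions to 42.4% against 43% at 30000, and in replicate 2 they end above, at 50.6% against 41.9%.

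Replicates were then compared member by member. Of the 85 members, 26 had a candidate in both replicates (30.6%, Wilson interval 21.8 to 41.1), against 23.4% of all protein-coding genes. The wider windows of members enter this count and the distances below. With the outermost 5′ end only, the count was 20, against 19.5% of all genes. A window can hold unrelated candidates, however, and for 22 of the 26 the strongest summits of the replicates lay over 100 bp apart. The 4 members whose strongest summits lay within 100 bp of each other were ceh-38, lim-4, unc-30 and ceh-34. Among all genes with candidates in both replicates the share within 100 bp was 42.7% of 4670, and among those with no IDR summit it was 34.2% of 3990, against 3 of 25 members (12%). Read at the strongest joined summit instead, 8 of 36 members had a candidate of both replicates within 100 bp (22.2%, against 27.8% of 8579 genes). Of the 36, 14 had one of replicate 1 only, 10 of replicate 2 only and 4 of neither. Of the 8579 genes, 3328 had one of replicate 1 only, 1711 of replicate 2 only and 1153 of neither. Of the 85 members only ceh-38 was in the strongest 542 of both replicates, against 2.25% of all genes. The strongest summits of lim-4, unc-30, ceh-57, unc-42 and ceh-20 differed in rank by more than 20000 places between the replicates.

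**Figure D4:**
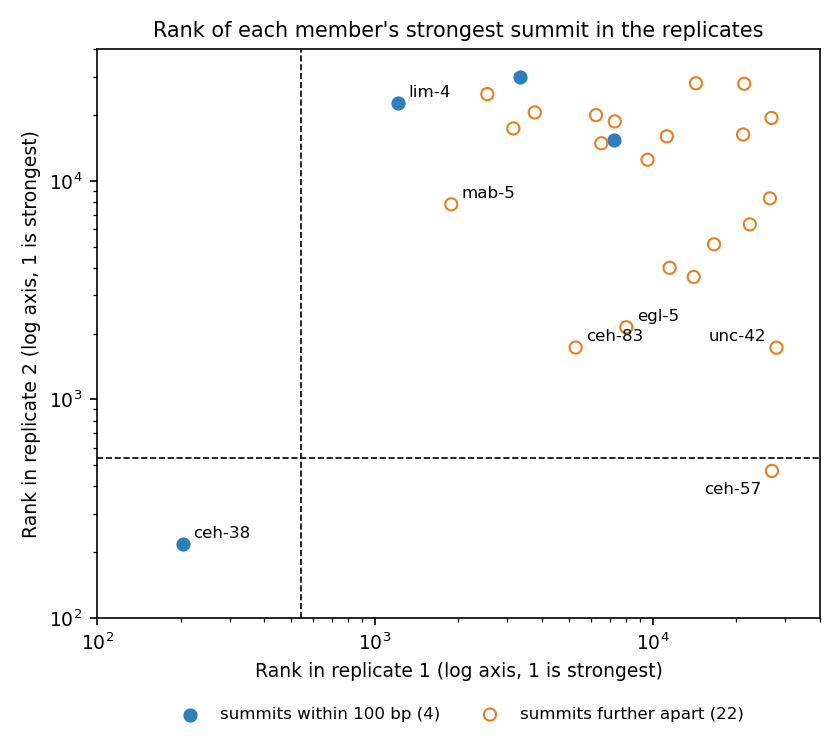
Rank of the strongest summit in the window in replicate 1 (horizontal log axis) and replicate 2 (vertical log axis) for the 26 members with a candidate in both, where 1 is the strongest of 30000. Filled points are the 4 members whose summits lie within 100 bp and open points the 22 further apart, and dashed lines mark rank 542. Only ceh-38 lies in the corner of high rank in both replicates.

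The setting of the genes in the genome differed from that of all genes in ways that the rule did not use. Of the members, 23 lay on X (27.1%, against 13.7% of protein-coding genes), and over all genes an IDR summit was less frequent on X (0.989%) than on autosomes (3.87%). The median distance to the nearest protein-coding gene upstream was 2723 bp for members and 1156 bp for all genes, and it was 479.5 bp for the genes with an IDR summit. The window of a member overlapped that of another gene in 15 of 85 cases (17.6%), against 36.3% of all genes and 77.7% of the genes with an IDR summit. Over all genes, an IDR summit was present for 7.44% of those with such an overlap and 1.22% of those without. By the same split, ceh-38 was 1 of the 15 members with an overlap, and 0 of the 70 members without one had an IDR summit. Members thus lay more often on X and at wider spacing, where IDR summits were rarer over all genes, and the part of chromosome and spacing in the members' count was not tested.

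For 37 of the 85 members the gene upstream ran the other way, as malt-1 does at ceh-38, and in 5 of these the gap was within 1000 bp. At 2 members the gene upstream itself had an IDR summit. These were ceh-38, where it is the same peak, and ceh-62, whose upstream neighbour npp-19 lies 7257 bp away. The same counts over all genes are not given here, so none of them can be called particular to members.

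By place, 17 of the 36 strongest joined summits of members lay between genes, 9 in introns, 5 in coding exons, 3 in 5′ UTRs and 2 in 3′ UTRs. Of these, 47.2% lay between genes, against 60.1% for all genes with a joined candidate and 85.7% for genes with an IDR summit. The median member summit lay 361 bp upstream of a 5′ end, against 331 bp for all genes with a joined candidate and 211 bp for genes with an IDR summit. Within 250 bp of a 5′ end lay 14 of the 36 (38.9%), against 41.1% and 58.9%. Of the 6 members within the strongest 5000 regions ceh-38 was the only one with its summit within 250 bp.

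**Figure D5:**
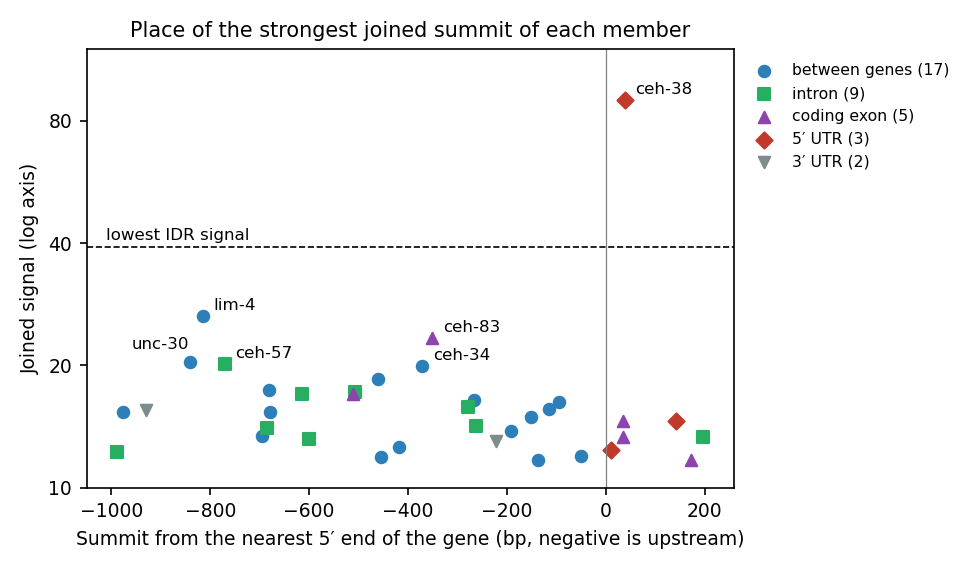
Joined signal (vertical log axis) of the strongest summit of each of the 36 members with a joined candidate, against its distance in bp from the nearest 5′ end of that gene (horizontal axis, negative is upstream). Symbols give the annotated place of the summit and the dashed line the lowest signal of the IDR set. The summit of ceh-38 lies at 38 bp with a signal of 90.1, and those of lim-4 and unc-30 lie 814 and 841 bp upstream at 26.4 and 20.4.

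Sequence words were counted next. The word ACGCGC, the word GACGCA and the word CGTAAA, searched on both strands, had been found frequent at IDR summits in earlier work on these same peaks, so their shares among IDR summits describe how they were chosen. The first and the second both hold the letters ACGC, followed by G in the first and by A in the second. The same copy of these letters therefore cannot belong to both. Within 50 bp of the summit, 298 of 542 IDR summits had at least 1 of the words (54.98%), as did 8.07% of all joined candidate summits, 13.5% of the strongest summits of the 8579 genes, and 10.1% of windows of the same length centred 150 bp upstream of every 5′ end. Of the 36 members, 4 had one (11.1%). These were ceh-27 and ceh-6 with GACGCA, and ceh-37 and lim-8 with CGTAAA, all with joined signals of at most 14.6. None of the words occurred within 50 bp of the ceh-38 summit.

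Across the whole 330 bp of the ceh-38 peak, CGTAAA occurred once (chrII:6951463-6951468), starting 63 bp before the first 5′ end and between the genes, and ACGCGC once (chrII:6951641-6951646), starting 115 bp after that end, 77 bp past the summit and in the 5′ UTR. In windows of this width, placed alike around the strongest joined summit, 10 of the 36 members had at least 1 of the 3 words (27.8%), against 67.5% of IDR summits, 22.3% of joined candidates and 27.2% of windows upstream of 5′ ends. Besides ceh-38 these included unc-30 with CGTAAA and ceh-57 with GACGCA and CGTAAA, while lim-4 had none. ACGCGC was found at ceh-38 only among the 36 (2.78%). Its share was 25.5% of IDR summits, 4.01% of joined candidates and 6.86% of windows upstream of 5′ ends. Over the same windows of 330 bp, CGTAAA and ACGCGC were present together at 8.67% of IDR summits, 0.89% of joined candidates and 1.39% of windows upstream of 5′ ends. The pair and the width were both taken from the ceh-38 peak, so these shares do not measure how unusual that peak is. A match is a run of letters and is not shown to be a site that the protein uses.

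Beyond the promoter window, an IDR summit lay in the gene or within 5000 bp of it for 2 members (2.35%, against 9.03% of all genes). The second was ceh-8, the Rx homologue, where the summit lay 115 bp past the 3′ end of the gene and inside the window of col-63, a collagen gene, with a signal of 39.5 at rank 534 of 542. The median distance from a member to the nearest IDR summit was 77216 bp, against 70284 bp for all genes. Joined candidates within this wider reach were present for 81 of 85 members (95.3%, against 96.1%), with a median strongest signal of 18.6 against 19.6. After ceh-38 and ceh-8, the highest were at ceh-24, an NK-type gene, with 30.04 at rank 882, and lin-39, with 27.99 at rank 1079, both between genes and further than 5000 bp from a 5′ end. The mab-5 locus had 25.8 at rank 1456 in an intron. These last 3 loci were chosen after their values were seen.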

How the data were processed

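ChIP-seq peak lists of 2 biological replicates in 1 group were used, on the ce11 build. Each deposited list gives, in column 7, the authors' signal per region, as their peak caller wrote it. Nothing in the sources used here states the scale of that signal, the caller, the aligner or a version of either. The control reads named beside the lists were not analysed here. The lists on ce10 were not used.

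From these lists, every summit was assigned to each protein-coding gene of Ensembl release 115 (WBcel235, the sequence of ce11) whose window held it, 1000 bp upstream to 200 bp downstream of 29784 5′ ends, and each gene took its summit of highest signal per list. Mitochondrial genes were left out. Places were read from the annotation, where "between genes" means outside protein-coding genes, and distances are to the nearest 5′ end of the gene. Summits within 100 bp counted as the same place. Sequence came from the RefSeq copy of WBcel235.

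The members, the gene classes and the words were chosen with earlier results of these data known, so no list was tested. Shares carry 95% Wilson intervals from Python 3.11.15 with scipy 1.17.1. The approximate limit at a count of 0 is 3 counts over the total. Both cover counting error only and treat genes as independent, although neighbouring genes can share a peak. Genes named are the 6 ONECUT and 6 Hox genes, members with an IDR summit, the 15 members of highest joined signal, the 5 highest in each replicate, the 3 non-homeobox members and the 3 highest other homeobox genes. Others were chosen after their values were seen. The assignment was tested on simulated data, where 200 of 200 placed summits were recovered. Alternatives changed the window, the assignment of summits, the number of regions, the replicate and the word window.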

Additional observations from a re-analysis of the deposited data

How the results depend on the processing

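Over 51 alternatives, 38 left a value within 1.5-fold of that reported and 13 did not. The IDR count was 1 of 85, with ceh-38, under every promoter window, assignment and stricter set tried. The share of all genes ran from 2.25% to 4.22% over these windows and assignments. It was 1.89% for the top 50% of the IDR set and 2.25% for the strongest 542 regions of both replicates. Over the gene body and 5000 bp to each side the IDR count was 2, as ceh-8 entered (9.03% of all genes). A single replicate has no IDR set, so its own strongest candidates, as many as the IDR set holds, were counted instead. Without replicate 2 these gave 1 member, ceh-38 (3.46% of all genes). Without replicate 1 they gave 2, ceh-38 and ceh-57 (2.77% of all genes), and ceh-57 has no IDR summit in its window. The number of members with a joined candidate was 21 with 500 bp upstream and 100 bp downstream (27.6% of all genes), 55 with 2000 bp (58.8%) and 6 in the strongest 5000 regions (12.4%). By single replicate it was 35 in replicate 1 (42.6%) and 43 in replicate 2 (41.9%). The ONECUT count, out of 6, was 5 with 2000 bp (58.8% of all genes) and 1 in the strongest 5000 regions (12.4%). It was 3 in replicate 1 alone (42.6%) and 3 in replicate 2 alone (41.9%). Members with candidates in both replicates numbered 13 with 500 bp (12.4% of all genes) and 8 when both had to lie within 100 bp of the joined summit. Members with a word numbered 2 within 25 bp of the summit (34.7% of IDR summits) and 7 within 100 bp (62.7%), and 10 in windows of the width of the ceh-38 peak (67.5%). The words were read from the IDR summits, so other backgrounds are given too. Within 25 bp members had 5.56%, strongest summits of all genes 7.02% and windows upstream of 5′ ends 5.21%. Within 100 bp these were 19.4%, 20.9% and 18.8%. At peak width, members had 27.8% and windows upstream of 5′ ends 27.2%. The median signal was 6.66 to 11.1 by single replicate, on those lists' own scales, where all genes had 7.11 and 11.2. The signal of ceh-38 was 90.1 under every window and assignment tried. This was fixed by position, as the summit lies 38 bp from the first 5′ end and so inside each window. These alternatives are among the 38 within 1.5-fold. The wider reach, the word window of peak width, the pair of words counted in it and the 100 bp requirement were chosen after seeing the data. So were the sets without non-homeobox genes or without ceh-38.

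No paired analysis was possible because the samples form 1 group. Depth is unknown, so a member without a candidate cannot be called unbound. Both replicates come from 1 strain, and no other strain was compared.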

Other observations

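18 homeobox genes outside the symbol rule were listed for comparison, without the CUX-type gene that the report gives apart. None had an IDR summit in the window, which leaves room for a share of about 16.7%, or 3 counts (upper Wilson limit 17.6%). A joined candidate was present for 11 of the 18 (61.1%, Wilson interval 38.6 to 79.7, against 43% of all protein-coding genes), with a median signal of 13.8. Replicate 1 had a candidate for 9 (50%, 29.03 to 71.0, against 42.6%) and replicate 2 for 15 (83.3%, 60.8 to 94.2, against 41.9%). These genes were chosen with earlier results known, and the shares were not tested. The highest joined value was at psa-3, a TALE gene, with 24.7 at rank 1755, 78 bp downstream of a 5′ end. Replicate 1 had 19.9 at rank 1139 within 100 bp of that summit, and the strongest candidate of replicate 2 in the window, with 5.50, lay upstream at another place. Next were dsc-1, named for the defecation cycle, with 18.2 at rank 7082, and unc-62, the Meis homologue and Hox cofactor, with 17.9 at rank 7722. In replicate 2 alone, irx-1, the Iroquois homologue, had a signal of 15.3 at rank 475, and neither the joined list nor replicate 1 had a summit in its window. This gene was chosen after its values were seen.

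At least 1 of the 3 candidate lists had a summit in the window of 54 of the 85 members (63.5%, against 63.6% of all protein-coding genes), and all 3 did for 20 (23.5%, against 20.9%). These shares too come from windows that were wider on average for members. The 31 members in none of the lists included ceh-12, ceh-18, ceh-30, ceh-40 and ceh-51.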
